A study of Mus musculus with 6 samples.

Results

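The genes examined were 9 that serve heme synthesis and the supply of iron and glycine to it inside mitochondria: Alas2, Alas1, Alad, Urod, Cpox, Ppox, Fech, Slc25a37 and Slc25a38. They were found by gene name among the 34709 genes of the table, and each name matched 1 gene. Articular cartilage of knockout (KO) mice and of wildtype mice was profiled by RNA-seq, with 3 libraries labelled for each group. Per the study's methods the animals were male littermates aged 18 months, and the labels name no treatment for either group. Whether a library held tissue of 1 animal or of several was not stated in the labels, so the p-values below measure only the spread between these samples. KO replicates 2 and 3 differed far less than any other pair of libraries and were averaged into 1 sample, which left 2 KO and 3 wildtype samples.

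Heme is built in a chain of reactions that begins and ends in the mitochondrion and passes through the cytosol in between. The entry step joins glycine and succinyl-CoA and is run by aminolevulinate synthase, of which Alas1 encodes the form made in all tissues and Alas2 the form of red cell precursors. Maturing red cell precursors make heme for hemoglobin in amounts far beyond those of other cells. Which cells of these samples the transcripts came from was not tested.

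GATA motifs are the DNA sites of GATA1, the factor that switches on red cell genes, and were searched as the motif AGATAA, and likewise as the motif TGATAA, each also with G as its last letter, on both strands of the 250 bases before each RefSeq start site (GRCm38.p6). Windows of 7 of the 9 genes were read, and 2 of these genes, Alas2 and Cpox, held a match. The other members were not read, so whether they hold a match is not known. Of all 32851 windows searched, 26.5% held 1 or more matches and 6.40% held 2 or more. A match in 2 of 7 genes was near the first of these shares. That share counts windows and not genes, and Alas1 and Alad had 2 windows each, so the comparison is a rough one. The 2 windows with a match are shown on the plus strand, which both genes use, with the matches in capitals. They cover chrX:150547167-150547374 for Alas2, shortened so that it ends before the gene as the table places it, and chr16:58669958-58670207 for Cpox.
Alas2: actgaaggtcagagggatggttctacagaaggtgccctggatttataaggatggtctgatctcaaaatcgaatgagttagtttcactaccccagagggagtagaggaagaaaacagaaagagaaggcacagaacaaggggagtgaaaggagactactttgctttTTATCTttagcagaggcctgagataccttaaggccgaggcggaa
Cpox: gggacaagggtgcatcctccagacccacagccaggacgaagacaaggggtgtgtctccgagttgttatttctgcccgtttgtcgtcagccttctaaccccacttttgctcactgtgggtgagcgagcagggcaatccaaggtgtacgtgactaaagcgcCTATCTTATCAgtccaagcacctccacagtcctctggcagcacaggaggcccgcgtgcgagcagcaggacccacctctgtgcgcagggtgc
The Alas2 match read AGATAA on the complementary strand, 86 to 81 bases before the start site. In Cpox, the motif AGATAG and, sharing 1 base with it, the motif TGATAA lay on the complementary strand, so that together they spanned 91 to 81 bases before the start site. These matches describe the letters of the windows and were not tested as binding sites.

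Total counts ranged from 52268311 to 63331135 per library, and the members had between 3692 and 89154 counts each, so that low counts did not limit them. Marker genes were read as a check on the tissue. Of 17 chondrocyte markers 14 were expressed at 0.5 FPKM or more on average (FPKM counts fragments for each kilobase of a transcript and scales them to the library). Prg4, the lubricant of the joint surface, was at 402 to 1034 FPKM and Col2a1, the main cartilage collagen, at 12.4 to 21.3 FPKM, whereas the cartilage matrilins Matn1 and Matn3 were at or near 0. Blood cell transcripts were far more abundant. The list of globin genes, which also held a globin chaperone, summed to 24400 to 107204 FPKM and 14 neutrophil markers to 27789 to 64099 FPKM.

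To ask whether heme synthesis genes differed with genotype, each of the 9 was compared between KO and wildtype cartilage. Alas2 was lower and Alas1 higher in every KO library than in every wildtype library, so the pair of synthase genes went in opposite directions. The steps after the synthase and both mitochondrial carriers followed Alas2, with 8 of the 9 log2 differences below 0 and a median of -0.55, beside -0.016 for all 15373 genes tested. In 7 of the 9 genes all KO libraries lay below all wildtype libraries, which was so for 13.7% of all tested genes, and in 1 gene, Alas1, all lay above, which was so for 11.3%. None of the 9 passed an adjusted p of 0.05 in edgeR's quasi-likelihood test, nor did any of the other genes (0%). At an unadjusted p under 0.05, 5 members were lower, beside 6.07% of all tested genes, and 1 was higher, beside 7.63%. Without wildtype replicate 3, the library with the highest Alas2, 1 member in place of 6 was under that limit. In bulk tissue, fewer cells of a type and less RNA per cell cannot be told apart.

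**Figure D1:**
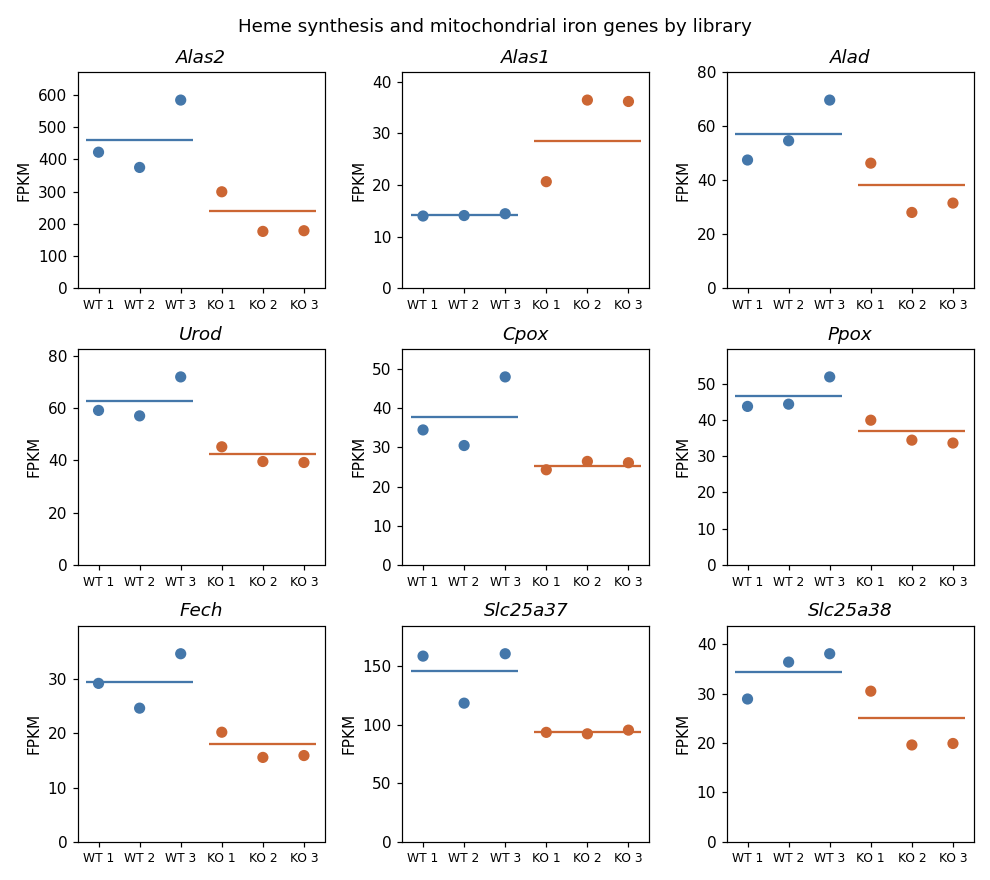
Level of each of the 9 genes in FPKM (vertical axes, starting at 0) in the 3 wildtype libraries (WT, blue) and the 3 KO libraries (orange), 1 point per library. Lines mark the wildtype mean (n = 3) and the KO mean with KO 2 and KO 3 counted as 1 sample (n = 2). Slc25a38 is the only panel in which the groups overlap, and Alas1 the only one in which KO lies above wildtype.

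Alas2, the erythroid synthase (chrX:150547375-150570638, plus strand, GRCm38), was the most abundant member in every library. It was at 299, 176 and 178 FPKM in KO replicates 1, 2 and 3, and at 422, 375 and 584 FPKM in wildtype replicates 1, 2 and 3. The groups did not overlap, but KO replicate 1 was closer to the lowest wildtype library than to the other KO libraries. The mean was 238 ± 86.2 FPKM in KO (SD, n = 2) and 460 ± 109.7 FPKM in wildtype (SD, n = 3), a log2 difference of -0.91 with a standard error of 0.32. This was 1.88-fold lower in KO and did not pass the threshold (edgeR, Benjamini-Hochberg adjusted p = 0.278). With KO replicate 1 left out the log2 difference was -1.41, and with KO replicates 2 and 3 left out it was -0.54.

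Alas1, the synthase of all tissues (chr9:106233455-106248654, minus strand), was at 20.6, 36.4 and 36.2 FPKM in the KO libraries and at 13.97, 14.1 and 14.4 FPKM in the wildtype libraries. The wildtype libraries were nearly equal, and the KO libraries split, with replicate 1 between wildtype and the other KO libraries. Its mean was 28.5 ± 11.1 FPKM in KO (SD, n = 2) and 14.1 ± 0.233 FPKM in wildtype (SD, n = 3). The log2 difference was 1.01 with a standard error of 0.20, or 2.02-fold higher in KO, and ranked 119 of 15373 genes by unadjusted p, the smallest among the 9. The value was 1.32 with KO replicate 1 left out and 0.62 with KO replicates 2 and 3 left out. It did not pass the threshold over 5 samples (edgeR, Benjamini-Hochberg adjusted p = 0.166). It was the 1 member that passed when all 6 libraries were taken as labelled, with a log2 difference of 1.12 (edgeR, Benjamini-Hochberg adjusted p = 0.0358). In that comparison 2.46% of all tested genes were called higher and 1.25% lower.

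With DESeq2 on the 5 samples, 4 members passed the threshold. Alas1 was called higher (DESeq2, adjusted p = 0.00105), beside 3.45% of all tested genes. Slc25a37 (DESeq2, adjusted p = 0.0123), Fech (DESeq2, adjusted p = 0.0341) and Alas2 (DESeq2, adjusted p = 0.0407) were called lower, beside 2.27%.

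The balance between the synthase genes was read as the share of their summed FPKM that came from Alas1. That share was 3.20%, 3.62% and 2.41% in the wildtype libraries and 6.45%, 17.1% and 16.9% in KO replicates 1, 2 and 3. By FPKM, Alas2 thus exceeded Alas1 in every library, by 26.7 to 40.5 times in wildtype and by 4.84 to 14.5 times in KO. On counts scaled to the library but not to transcript length, the log2 ratio was smaller. It was 3.37 to 3.98 in wildtype and 0.912 to 2.50 in KO. The log2 FPKM ratio of Alas2 to Alas1 was 1.92 units lower in KO, beside an SD of 0.31 among the wildtype libraries. The ratio differed by -2.71 log2 units without KO replicate 1 and by -1.14 without KO replicates 2 and 3. No test was run on it.

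**Figure D2:**
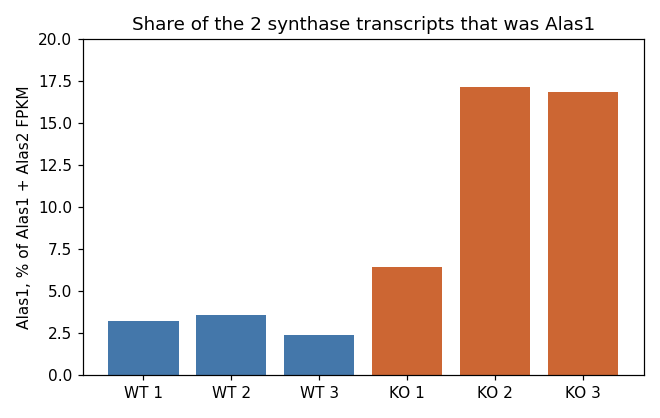
Alas1 as a percentage of the summed FPKM of Alas1 and Alas2 (vertical axis, from 0) in each wildtype (WT, blue) and KO (orange) library. The bars stand between 2.41% and 3.62% in wildtype, at 6.45% in KO 1 and at 17.1% and 16.9% in KO 2 and KO 3.

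The cytosolic steps were next in the chain. Alad (chr4:62509169-62519894, minus strand), whose enzyme joins aminolevulinate molecules into the pyrrole unit, was at 46.3, 28.02 and 31.5 FPKM in KO and 47.4, 54.6 and 69.6 FPKM in wildtype. The groups were separated by 1.17 FPKM, the gap between KO replicate 1 and wildtype replicate 1. Its log2 difference was -0.56 with a standard error of 0.26 (edgeR, Benjamini-Hochberg adjusted p = 0.408), and it was -0.98 without KO replicate 1 and -0.23 without KO replicates 2 and 3. Urod (chr4:116989965-116994413, minus strand), whose enzyme removes carboxyl groups from the ring, was at 45.2, 39.6 and 39.2 FPKM in KO and 59.2, 57.1 and 72.0 FPKM in wildtype. Here KO replicate 1 stood with the other KO libraries, all of them well below the lowest wildtype library. The mean of Urod was 42.3 ± 4.12 FPKM in KO (SD, n = 2) and 62.7 ± 8.07 FPKM in wildtype (SD, n = 3). Its log2 difference was -0.54 with a standard error of 0.16 (edgeR, Benjamini-Hochberg adjusted p = 0.222).

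The last steps return to the mitochondrion. Cpox (chr16:58670292-58717636, plus strand), whose enzyme oxidizes coproporphyrinogen, was at 24.3, 26.4 and 26.1 FPKM in KO and 34.4, 30.5 and 48.0 FPKM in wildtype. The KO libraries were close to each other and the wildtype libraries spread, with replicate 3 the highest. Its log2 difference was -0.55 with a standard error of 0.20 (edgeR, Benjamini-Hochberg adjusted p = 0.296), and it was -0.33 without wildtype replicate 3. Ppox (chr1:171275990-171281186, minus strand), whose enzyme forms the protoporphyrin ring, was at 39.9, 34.4 and 33.6 FPKM in KO and 43.7, 44.3 and 51.9 FPKM in wildtype. It had the smallest difference of the 9 genes, a log2 value of -0.31 with a standard error of 0.16 (edgeR, Benjamini-Hochberg adjusted p = 0.471), which became -0.49 without KO replicate 1 and -0.14 without KO replicates 2 and 3. Fech (chr18:64452914-64490251, minus strand), encoding ferrochelatase, which inserts iron into the ring, was at 20.2, 15.5 and 15.9 FPKM in KO and 29.2, 24.6 and 34.6 FPKM in wildtype. Its means of 17.95 ± 3.16 FPKM in KO (SD, n = 2) and 29.5 ± 5.02 FPKM in wildtype (SD, n = 3) differed by -0.69 on the log2 scale with a standard error of 0.21 (edgeR, Benjamini-Hochberg adjusted p = 0.232). After Alas2 this was the lowest log2 value among the members.

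The carriers feed these steps through the inner mitochondrial membrane. Slc25a37 (chr14:69241848-69285112, minus strand) encodes mitoferrin 1, the iron importer of red cell precursors, and was the second most abundant member. It was at 93.4, 92.1 and 95.3 FPKM in KO and 158, 118 and 160.5 FPKM in wildtype, so that the KO libraries were nearly equal. In Slc25a37, unlike Alas2 and Alas1, KO replicate 1 did not lie apart from the other KO libraries. Its log2 difference was -0.62 with a standard error of 0.20 (edgeR, Benjamini-Hochberg adjusted p = 0.250). Slc25a38 (chr9:120110374-120124504, plus strand), which brings in glycine, was at 30.5, 19.6 and 19.9 FPKM in KO and 28.9, 36.4 and 38.1 FPKM in wildtype. It was the 1 member whose groups overlapped, because KO replicate 1 was above wildtype replicate 1. Its log2 difference was -0.43 with a standard error of 0.24 (edgeR, Benjamini-Hochberg adjusted p = 0.516), and it ran from -0.84 without KO replicate 1 to -0.10 without KO replicates 2 and 3.

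**Figure D3:**
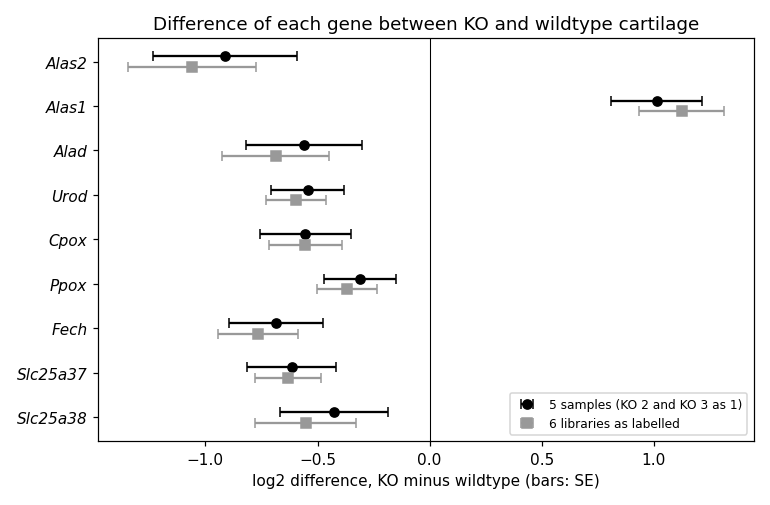
Log2 difference of each gene, KO minus wildtype (horizontal axis), with its standard error as bars, over 5 samples with KO 2 and KO 3 as 1 (black circles) and over the 6 libraries as labelled (grey squares). Alas1 lies at 1.01 and 1.12, and the other 8 genes lie below 0 in both fits.

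Several members share their locus with other genes. Apex2, on the opposite strand, spanned all of Alas2 in the table at 1.18 to 2.02 FPKM, far below Alas2. B4galt3 overlapped 907 bases of Ppox on the opposite strand at 5.82 to 10.8 FPKM, and an antisense transcript overlapped Alas1 at no more than 0.377 FPKM. The libraries kept strand, but use of strand in counting was not stated in the sources used here, so reads of Ppox and B4galt3 may not be fully separated.

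By FPKM, which is scaled to transcript length, the order of mean levels in wildtype was Alas2, Slc25a37, Urod, Alad, Ppox, Cpox, Slc25a38, Fech and Alas1. Alas2 and Slc25a37 were each separated from all other members, and Alas1 lay below every other member in every wildtype library. From Urod to Fech the range of each gene overlapped that of the next. Within each wildtype library, however, Urod was above Alad, Alad above Ppox and Ppox above Cpox. Cpox lay below Slc25a38 in wildtype replicate 2, and Slc25a38 lay below Fech in wildtype replicate 1. In KO the order of the means kept the first 5 genes, and Alas1 came 6th, ahead of Cpox, Slc25a38 and Fech. Its KO libraries, from 20.6 to 36.4 FPKM, overlapped those of Alad, Ppox, Cpox and Slc25a38 and lay above those of Fech.

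Genes with the pattern most like Alas2 and Alas1 were sought among the 7614 genes that averaged 5 FPKM or more. Likeness was the root mean square difference, over the 6 libraries, of log2(FPKM + 1) minus the gene's own mean. Among the 5 nearest to Alas2 were Ube2l6, a ubiquitin-conjugating enzyme, at 0.049, Aldh1a7 at 0.069, the fatty acid receptor Cd36 at 0.12 and the water channel Aqp1 at 0.12. Ube2l6 was at 134, 74.1 and 73.8 FPKM in KO and 187, 171 and 251 FPKM in wildtype. Among members, Fech ranked 53 and Alad 55 in likeness to Alas2. Slc25a38, Urod, Slc25a37, Cpox and Ppox ranked lower, from 192 for Slc25a38 to 424 for Ppox, and Alas1 ranked 7502.

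Nearest to Alas1 was Mpo, the peroxidase of neutrophil granules, with a root mean square difference of 0.035. Mpo was at 343, 620 and 611 FPKM in KO and 240, 258 and 251 FPKM in wildtype, with KO replicate 1 between the groups as in Alas1. Next came Cd300lf, a receptor of myeloid cells, at 0.037, Flot2 at 0.046, B4galt6 at 0.046 and Itgam, encoding the integrin CD11b of myeloid cells, at 0.049. Itgam was at 83.3, 154 and 153 FPKM in KO and 57.4, 58.0 and 64.2 FPKM in wildtype. These likenesses rest on 6 libraries, of which KO replicates 2 and 3 are nearly the same.

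**Figure D4:**
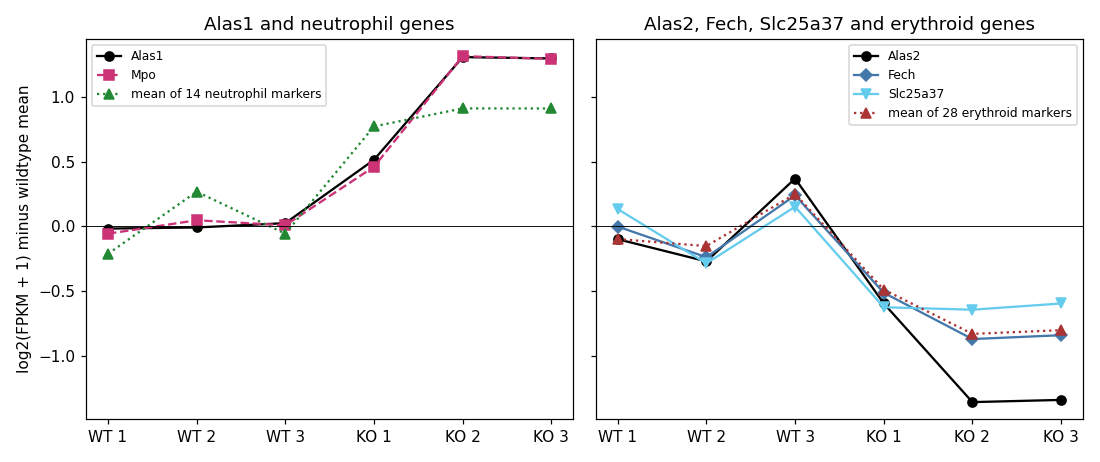
Log2(FPKM + 1) minus the wildtype mean (vertical axis) in each library for Alas1, Mpo and the mean of 14 neutrophil markers (left) and for Alas2, Fech, Slc25a37 and the mean of 28 erythroid markers (right). Alas1 and Mpo run together, with KO 1 between wildtype and the other KO libraries, but Mpo was picked as the gene nearest to Alas1 in these libraries. The neutrophil mean runs less closely with Alas1, at 0.77, 0.91 and 0.91 in KO 1, KO 2 and KO 3 and from -0.21 to 0.27 in wildtype. Fech runs close to the erythroid mean, and Alas2 lies below it in KO 2 and KO 3.

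Markers of blood cells also lay apart between the groups. Beside the counts of this and later lists, 6.07% of all tested genes were lower and 7.63% higher at an unadjusted p under 0.05. All KO libraries lay below all wildtype libraries in 13.7% of all tested genes and above in 11.3%. Over the 6 libraries as labelled 1.25% were called lower and 2.46% higher, and with DESeq2 2.27% and 3.45%. Of 28 erythroid markers other than globins and members, 27 had a log2 difference below 0, 26 had all KO libraries below all wildtype libraries, and the median was -0.66. Their FPKM summed to 1511 to 1996 in KO and 2624 to 3421 in wildtype. At an unadjusted p under 0.05, 24 were lower and 0 higher, and 0 passed the adjusted threshold (edgeR). Over the 6 libraries as labelled 5 were called lower, among them Epb42 of the red cell membrane skeleton and the blood group antigen Kel, and with DESeq2 13 passed. Of 14 neutrophil markers all had a log2 difference above 0, with a median of 0.87, and 13 had all KO libraries above all wildtype libraries. Their FPKM summed to 52831 to 64099 in KO and 27789 to 44914 in wildtype. At an unadjusted p under 0.05, 10 of them were higher, 0 passed the adjusted threshold (edgeR), 5 did so over the 6 libraries as labelled, and 10 with DESeq2.

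Each member was therefore also read relative to those lists, as its log2(FPKM + 1) minus the mean of the list in the same library, a step chosen after the values were seen and given without a test. Relative to the erythroid markers, Alas2 was at -0.32 in KO minus wildtype, with overlapping groups, and Fech at -0.03. The other 6 members with lower values lay between 0.03 for Slc25a37 and 0.32 for Ppox, and of these Urod (0.10) and Ppox had all KO libraries above all wildtype libraries. Relative to the neutrophil markers, Alas1 was at 0.07. Its KO libraries then stood at -0.26, 0.40 and 0.39 and its wildtype libraries at 0.19, -0.28 and 0.08, so the groups overlapped. The other 8 members were at -1.81 to -1.17 on that scale, all with KO below wildtype, and Alas1 relative to the erythroid markers was at 1.56.

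**Figure D5:**
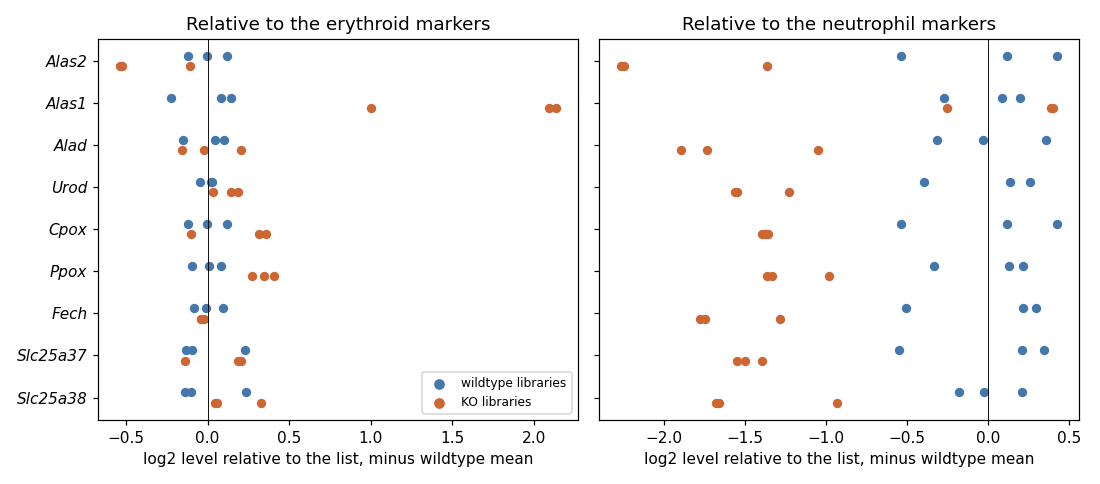
Log2 level of each member relative to the mean of 28 erythroid markers (left) or 14 neutrophil markers (right) of the same library, minus its wildtype mean (horizontal axis), 1 point per wildtype (blue) and KO (orange) library. Relative to erythroid markers 8 of the 9 genes lie around 0, with mean differences between -0.32 and 0.32, and relative to neutrophil markers Alas1 is the only one whose groups overlap.

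Globins are the proteins that carry the heme of red cells, and their list also held a globin chaperone. By summed FPKM this list was lower in KO replicates 2 and 3 than in all other libraries. Its deposited genes summed to 59962, 24674 and 24400 FPKM in KO replicates 1, 2 and 3 and to 70688, 82005 and 107204 FPKM in wildtype. KO replicate 1 was thus nearer to wildtype, as for Alas2 and Alad. Of the 8 genes of this list that were tested, 6 had a log2 difference below 0 and 2 above. In 5 of them all KO libraries lay below all wildtype libraries, and 0 had an unadjusted p under 0.05, with 0 past the adjusted threshold (edgeR). The mean log2(FPKM + 1) of the 8, minus its wildtype mean, was 0.07, -1.38 and -1.38 in KO replicates 1, 2 and 3. Hba-a1, Hba-a2 and Hbb-bt had log2 differences of -0.988, -0.984 and -0.997 (edgeR, Benjamini-Hochberg adjusted p from 0.421 to 0.526). Without KO replicate 1 these were -1.72, -1.71 and -1.91, and without KO replicates 2 and 3 they were -0.499, -0.498 and -0.438. Their values are uncertain one by one, because near-identical copies can split reads between them.

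The rest of the heme pathway was read from a list of 11 other enzymes and helpers. Of these, 10 had a log2 difference below 0, 8 had all KO libraries below all wildtype libraries, and the median was -0.52. At an unadjusted p under 0.05, 6 were lower and 0 higher, and 0 passed the adjusted threshold (edgeR). Abcb6, a porphyrin transporter, was at 4.33, 3.67 and 3.79 FPKM in KO and 8.49, 7.10 and 10.5 FPKM in wildtype. KO replicate 1 stood with the other KO libraries here, and the log2 difference was -1.08 (edgeR, Benjamini-Hochberg adjusted p = 0.166). Fam210b, a mitochondrial protein that aids iron delivery in red cell precursors, was at 12.8, 11.5 and 10.9 FPKM in KO and 18.6, 17.5 and 22.8 FPKM in wildtype. Both passed over the 6 libraries as labelled, at adjusted p-values of 0.0358 for Abcb6 and 0.0391 for Fam210b (edgeR, Benjamini-Hochberg). Abcb10, which binds mitoferrin 1 in the inner membrane, and Slc25a39, a glutathione carrier, had log2 differences of -0.56 and -0.55.

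Uros, whose enzyme closes the ring ahead of Urod, and Slc25a28, which encodes the mitoferrin of other tissues, were named after their values were seen. Uros was at 22.1, 15.6 and 16.0 FPKM in KO and 24.3, 26.4 and 32.4 FPKM in wildtype. All KO libraries of Uros lay below its wildtype libraries. Slc25a28 was at 13.3, 11.5 and 11.4 FPKM in KO and 11.5, 10.7 and 10.8 FPKM in wildtype. Its groups overlapped, and its log2 difference was 0.19. In these libraries Slc25a28 and Slc25a37 thus had differences of opposite sign.

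Iron-sulfur cluster assembly, the other main use of mitochondrial iron, had a median nearer to that of all genes. Of its 17 genes, 2 were lower at an unadjusted p under 0.05 (Isca1 at -0.73 and Iba57 at -0.51 on the log2 scale), beside 6.07% of all tested genes, and 0 were higher. In 3 all KO libraries lay below all wildtype libraries, beside 13.7% of all tested genes, and in 1, Nfu1, all lay above, beside 11.3%. The median was -0.15, and 0 passed the adjusted threshold by edgeR or DESeq2. Among 30 other mitochondrial carriers of the SLC25 family, 3 were lower and 3 higher at an unadjusted p under 0.05, beside 6.07% and 7.63% of all tested genes. Their median was -0.08. Slc25a51, the NAD carrier of mitochondria, was at -0.77 and Slc25a29, a carrier of basic amino acids, at 1.09.

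Of 16 genes of cellular iron handling, 3 were lower and 0 higher at an unadjusted p under 0.05, with a median of -0.18. These were Tfr2, which encodes transferrin receptor 2 (-0.77), the iron transporter Slc11a2 (-0.66) and the ferrireductase Steap3 (-0.49), each with all KO libraries below all wildtype libraries. Tfr2 and Slc11a2 passed over the 6 libraries as labelled, at adjusted p-values of 0.0441 and 0.0358 (edgeR, Benjamini-Hochberg). Of 11 genes tested for heme export, import, breakdown and sensing, 3 were lower and 0 higher at an unadjusted p under 0.05, with a median of -0.19. Hmox1, the enzyme that opens the heme ring, was at 44.1, 41.5 and 36.5 FPKM in KO and 60.1, 65.4 and 88.2 FPKM in wildtype, which gave a log2 difference of -0.75 (edgeR, Benjamini-Hochberg adjusted p = 0.190). It passed over the 6 libraries as labelled (edgeR, Benjamini-Hochberg adjusted p = 0.0476). None of the genes of both lists passed in edgeR over 5 samples.

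Other cell types were read in the same way. Of 12 B cell markers all had KO libraries below wildtype libraries, with a median log2 difference of -1.47, and 11 were called lower over the 6 libraries as labelled. Of 12 macrophage markers, 4 were lower and 1 higher at an unadjusted p under 0.05, with a median of -0.34. No chondrocyte marker had groups that did not overlap, and their median was 0.14. For 11 osteoblast and 8 megakaryocyte markers the medians were -0.41 and -0.25, with 0 genes at an unadjusted p under 0.05. Skeletal muscle markers summed to 173 FPKM in KO replicate 1, to 5.59 and 4.58 FPKM in KO replicates 2 and 3, and to 38.2, 61.1 and 300 FPKM in wildtype, so the groups overlapped and single libraries stood apart. The part of these cell types in the differences of the 9 genes was not tested.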

How the data were processed

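RNA-seq of articular cartilage from 3 KO and 3 wildtype libraries was used, grouped by title. The gene knocked out, and some genes that the rule for named genes would give, are not reported here. The authors deposited 1 table with estimated counts and FPKM per gene (GRCm38 coordinates), FPKM being scaled by the authors within each library. The submitters' processing notes name cutadapt 1.9, HISAT2 2.0.4, UMI-tools, StringTie 1.3.4d, DESeq2 and edgeR, without their roles. The deposited counts were whole numbers and needed no rounding. No per-sample column was left unused.

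All 15 library pairs were compared by a noise ratio, the median squared difference of scaled counts over that of Poisson sampling, in genes with 10000 to 50000 counts. It was 5.90 for KO replicates 2 and 3 and 66.0 to 540 for the other 14 pairs. These 2 libraries still differed by more than sampling noise, but as possible repeats of 1 source they were averaged as 1 sample. Genes averaging 0.5 FPKM or more (15373) were tested on the deposited counts by the quasi-likelihood method of edgeR (version 4.0.16 under R 4.3.3, TMM scaling), with Benjamini-Hochberg adjustment over all of them and a threshold of 0.05. The scripts were tested on simulated data. Alternatives were DESeq2 1.42.0, limma 3.58.1 with pseudocounts of 1 and 0.1 FPKM, median-of-ratios scaling, no filter, a minimum of 5 FPKM, the 6 libraries as labelled with and without a replicate block, and each library left out.

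The 9 genes, the lists and the tests were chosen with earlier results of these data known. Beyond the 9 genes, the rule named up to 4 genes per pathway list with the smallest unadjusted p and the 5 genes nearest in pattern to Alas2 and to Alas1. The Cpox window was shown after its matches were seen. Promoter sequences are from RefSeq. Fech and Slc25a37 were not among the members whose windows were read.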

Additional observations from a re-analysis of the deposited data

How the results depend on the processing

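All 9 members kept the sign of their log2 difference in all 16 settings of the fit. Of their 9 values under each other setting with a test, 112 in all kept their side of the threshold and 5 newly passed it. Of the values without a test, from fits with KO replicate 1 or KO replicates 2 and 3 left out, 12 moved by more than the SD of the wildtype libraries and 6 did not. The number of members past the adjusted threshold went from 0 to 1 over the 6 libraries as labelled and to 4 with DESeq2, and the number of all genes past it from 0 to 570 and 879. Without the filter on low values 21 genes passed, none of them a member. With single libraries left out, 0 to 1 genes passed (1 without wildtype replicate 2 and 1 without wildtype replicate 3) and 0 members. The members with an unadjusted p under 0.05, 6 as reported, numbered 1 to 6 when a library was left out, the lowest without wildtype replicate 3. The share of all tested genes under that limit is not given for those fits. The members' median log2 difference of -0.55 was lowest, at -0.71, when KO replicate 1 was left out and highest, at -0.39, when wildtype replicate 3 was, and it was -0.391 without KO replicates 2 and 3. The log2 ratio of Alas2 to Alas1, -1.92 as reported, was -2.71 with KO replicate 1 left out, -1.75 with wildtype replicate 3 left out and, in an alternative chosen after seeing the data, -1.14 with KO replicates 2 and 3 left out together. Relative to the erythroid markers, a scale chosen after seeing the data, 6 members turned from lower to higher in KO: Alad (0.057), Urod (0.10), Cpox (0.12), Ppox (0.32), Slc25a37 (0.030) and Slc25a38 (0.19). The cause of these changes was not tested.

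Replicate numbers are shared between the groups. Deviations of same-numbered libraries from their group means had correlations of -0.21, -0.18 and 0.0014 for numbers 1, 2 and 3. Because KO replicates 2 and 3 were nearly the same, these correlations cannot tell those numbers apart and do not decide whether samples were paired. The labels state no pairing, so the numbers were not taken to pair the samples. With the replicate block over the 6 libraries, 0 members and 0 genes passed the adjusted threshold, and 7 members had an unadjusted p under 0.05. The share of all tested genes under that limit is not given for this fit. The members' median log2 difference was -0.60, beside -0.026 for all tested genes.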
